A study of Mus musculus with 4 samples.

Results

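The genes described here are the globin and erythroid genes Hba-a1, Hba-a2, Hbb-bs, Hbb-b2, Alas2 and Slc4a1, taken by their symbols from a deposited expression table of mouse muscle stem cells. They are 6 of the 24328 gene symbols in that table. They were chosen by their FPKM values in the DEK libraries set against those in the YFP libraries, so the difference between DEK and YFP libraries is a description for them and carries no test. The DEK group was 2 libraries from 4.5-month-old Pax7CreERT2/+; H11DEK-EGFP/+ mice, and the YFP group was 2 libraries from 7-month-old Pax7CreERT2/+; ROSA26YFP/+ mice. Both groups share the Pax7-driven, tamoxifen-dependent Cre recombinase, which limits recombination to Pax7-expressing cells, and in both the mice were perfused with paraformaldehyde (PFA) so that cells were fixed before the muscle was digested and sorted. Transgene, reporter and age changed together between the groups and cannot be told apart. The sort gate, the use of tamoxifen and the number of animals in a library are not given in the labels.

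Red blood cells carry oxygen on hemoglobin, a tetramer of a pair of alpha globin and a pair of beta globin chains, each holding a heme. The mouse alpha genes (Hba) and beta genes (Hbb) sit in separate clusters on chromosomes 11 and 7 and are switched on to very high levels in late erythroid precursors by factors such as Gata1, Klf1 and Tal1. Alas2 makes the first enzyme of heme synthesis in erythroid cells, and Slc4a1 makes band 3, the anion exchanger of the red cell membrane. Mature red cells of mammals have no nucleus but can keep globin RNA for a time. In skeletal muscle such cells lie in the blood vessels, and globin RNA is not a marker of the satellite cell, the stem cell of muscle.

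The upstream sequences of the members were set side by side because the globin genes rest on shared promoter elements. RefSeq windows on build GRCm38.p6, a later build than the mm9 named for the deposited values, were found for 4 of the 6 members, while Hbb-b2 and Slc4a1 were not matched. The 250 bases before the annotated start are printed below in lower case, 5′ to 3′, with 4 motifs in capitals on either strand: GATAA (reverse TTATC), which GATA factors can bind; CACCC (reverse GGGTG), which Klf1-like factors can bind; CCAAT (reverse ATTGG); and TATAA (reverse TTATA). The last motif can overlap its own reverse, as it does in Alas2, where the overlap is counted as 2 matches. Hba-a1 is at chr11:32283422-32283671 on the plus strand, Hbb-bs at chr7:103827929-103828178 on the minus strand and Alas2 at chrX:150547167-150547416 on the plus strand.
Hba-a1: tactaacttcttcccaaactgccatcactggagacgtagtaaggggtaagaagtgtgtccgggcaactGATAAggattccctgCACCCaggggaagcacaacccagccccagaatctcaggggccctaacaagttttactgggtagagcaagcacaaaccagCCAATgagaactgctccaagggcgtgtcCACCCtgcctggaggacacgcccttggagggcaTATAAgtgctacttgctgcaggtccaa
Hbb-bs: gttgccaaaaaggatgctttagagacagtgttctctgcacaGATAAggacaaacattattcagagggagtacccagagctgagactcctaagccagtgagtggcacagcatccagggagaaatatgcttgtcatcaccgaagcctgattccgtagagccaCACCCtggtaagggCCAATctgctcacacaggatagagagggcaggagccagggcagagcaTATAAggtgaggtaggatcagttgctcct
Alas2: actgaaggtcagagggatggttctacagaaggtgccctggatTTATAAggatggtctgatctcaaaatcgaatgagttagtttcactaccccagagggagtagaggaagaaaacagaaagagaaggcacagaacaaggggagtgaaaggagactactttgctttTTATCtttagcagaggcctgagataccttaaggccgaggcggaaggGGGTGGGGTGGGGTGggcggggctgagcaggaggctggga

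Hba-a1, Hba-a2 and Hbb-bs each held all 4 motifs. Reading towards the start, a GATAA match came first, then a CACCC match, then the CCAAT match and last the TATAA match, and both alpha genes had a further CACCC match before the last of these. TATAA began at -27 in Hba-a1, -30 in Hba-a2 and -29 in Hbb-bs, counted in bases from the annotated start. The Alas2 window held every motif except CCAAT, with 3 adjoining CACCC matches on the reverse strand. Among all 32851 promoter windows of this length, 22.6% held GATAA, 52.0% CACCC, 33.8% CCAAT, 22.8% TATAA and 0.968% all 4. The windows of Hba-a1 and Hba-a2, offset by 3 bases, were identical in all 247 bases compared. These matches describe the letters of the windows, and the binding of any factor was not measured.

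The coding sequences are shown because they decide how far the copies can be told apart by reads. In the GENCODE M21 transcripts the 429 coding bases of Hba-a1 and Hba-a2 differed at 1 base, C381T from Hba-a1 to Hba-a2, and the 444 coding bases of Hbb-bs and Hbb-bt differed at 1 base, C417T, with positions counted from 1 at the A of the start codon. The last coding bases, from 351 of the alpha genes and from 387 of the beta genes, are printed with the differing base in capitals.
Hba-a1: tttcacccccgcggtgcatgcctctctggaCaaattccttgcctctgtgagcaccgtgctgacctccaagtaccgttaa
Hba-a2: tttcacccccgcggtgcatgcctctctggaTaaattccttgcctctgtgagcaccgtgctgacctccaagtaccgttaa
Hbb-bs: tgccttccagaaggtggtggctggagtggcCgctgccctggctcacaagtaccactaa
Hbb-bt: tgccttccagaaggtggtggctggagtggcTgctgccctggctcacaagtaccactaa
Of all stretches of 75 bases, the read length, in the Hba-a1 coding sequence 86.2% also occurred in that of Hba-a2, and 92.4% of those of Hbb-bs also occurred in Hbb-bt. Over whole transcripts the shares were 62.2% and 64.3%. Between Hba-a1 and Hbb-bs 0 such stretches were shared. The split of reads within the alpha pair or between Hbb-bs and Hbb-bt is therefore uncertain. Hbb-b1 and Hbb-b2 were not compared in sequence, so the split within the whole beta group is uncertain too. The sums over copies are given beside the single values.

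The 4 libraries had column totals of 541183 to 545123 FPKM (fragments per kilobase of transcript, scaled to the size of the library), and 11669 to 12000 genes stood at 1 FPKM or more. Genes above 0 numbered 17081 and 17177 in DEK libraries 1 and 2 but 15728 and 14997 in YFP libraries 1 and 2. This limits every comparison below that rests on a listed 0 in YFP or on values under 1 FPKM. Dek, the gene of the transgene, was at 3196 and 1639.5 FPKM in DEK libraries 1 and 2 and at 512 and 504 FPKM in YFP libraries 1 and 2. Rn45s, the precursor of ribosomal RNA, made up 5.15% and 5.55% of the summed FPKM in DEK and 11.8% and 15.7% in YFP. The satellite cell transcription factor Pax7 was at 119 and 184 FPKM in DEK and at 106 and 93.9 FPKM in YFP, so this defining marker of the labelled cell type was present in every library. Across the table, limma called 948 of 12179 tested genes (7.78%) at an adjusted p under 0.05, with 557 (4.57%) higher and 391 (3.21%) lower in DEK. At an unadjusted p under 0.05, 16.9% of tested genes were higher and 12.2% lower in DEK, the background for the counts at that threshold given below.

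Globin RNA was present in both DEK libraries and nearly absent from YFP library 2. Hba-a1 was at 11.1 and 111 FPKM in DEK libraries 1 and 2, against 0.0627 FPKM in YFP library 1 and a listed 0 in YFP library 2. The DEK values lay far above the YFP values, and those of the DEK libraries were 10.05-fold apart. Hba-a2 was at 11.5 and 62.7 FPKM in DEK and at 5.43 and 0 FPKM in YFP. Here YFP library 1 came within reach of DEK library 1, and the groups still did not overlap. Summed over both copies, alpha globin was at 22.5 and 174 FPKM in DEK and at 5.50 and 0 FPKM in YFP. Hba-a1 took 49.1% and 63.9% of that sum in the DEK libraries and 1.14% in YFP library 1. On the log2(FPKM + 1) scale the DEK mean exceeded the YFP mean by 5.16 for Hba-a1 and 3.47 for Hba-a2.

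The beta globin members followed different libraries. Hbb-bs was highest in DEK library 1, at 13.9 FPKM, and lower in DEK library 2, at 5.89 FPKM, against 0.339 and 0.220 FPKM in YFP libraries 1 and 2. Hbb-b2 had the reverse order within the group, with 1.78 and 27.3 FPKM in DEK libraries 1 and 2 and with 0.203 and 0 FPKM in YFP. Both kept the groups apart, with log2 differences, DEK minus YFP, of 2.99 for Hbb-bs and 3.01 for Hbb-b2. By name, Hbb-bs and Hbb-bt are the adult pair of the single (s) haplotype that C57BL/6 mice carry, and Hbb-b1 and Hbb-b2 are the pair of the diffuse (d) haplotype of other strains. The annotation used on mm9 is not given in the sources used here, so whether these symbols share one place on that build was not tested.

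**Figure D1:**
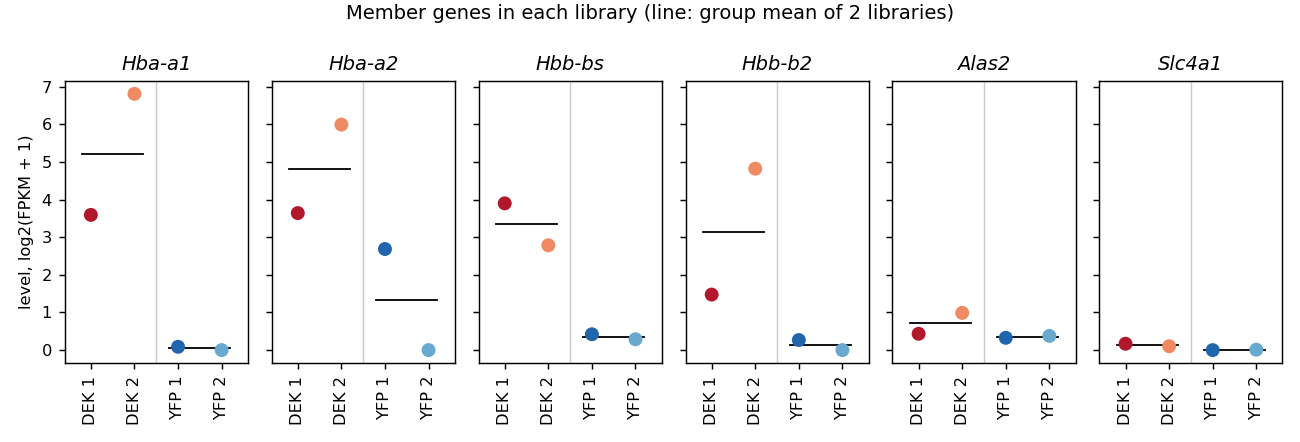
Level of each member gene, as log2(FPKM + 1), in DEK replicates 1 and 2 and YFP replicates 1 and 2, with the group mean as a line. The globins reach their highest values in DEK replicate 2 except Hbb-bs, which is highest in DEK replicate 1 at 13.9 FPKM, while Alas2 and Slc4a1 stay under 1 FPKM in all 4 libraries.

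The beta symbols outside the members held most of the beta globin signal in DEK library 2 and YFP library 1. Hbb-b1 was at 0.221 and 145 FPKM in DEK libraries 1 and 2 and at 1.75 and 0 FPKM in YFP, so the groups overlapped (log2 difference 3.01, SE 2.04, limma adjusted p = 0.372). Hbb-bt, chosen after its values were seen, was at 0.433 and 3.86 FPKM in DEK and listed at 0 in both YFP libraries. Summed over the 4 adult beta symbols, the level was 16.4 and 182 FPKM in DEK and 2.29 and 0.220 FPKM in YFP. In DEK library 1 Hbb-bs took 85.1% of this sum and Hbb-b1 1.35%, whereas in DEK library 2 Hbb-bs took 3.24% and Hbb-b1 79.6%. In YFP library 1 Hbb-b1 took 76.4%. The DEK libraries thus differed in which beta symbol carried the signal. How reads were split among these symbols was not tested, since Hbb-b1 and Hbb-b2 were not compared in sequence. The strain background of the animals was not tested either.

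**Figure D2:**
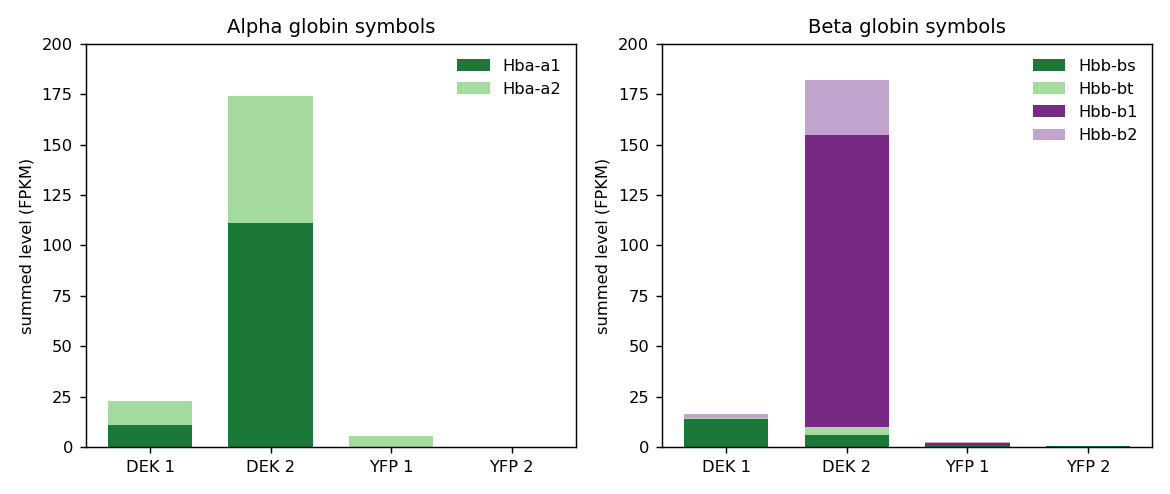
Stacked FPKM of the alpha globin symbols (left panel) and the adult beta globin symbols (right panel) in each library. DEK 2 reaches 174 FPKM for alpha and 182 FPKM for beta, DEK 1 reaches 22.5 and 16.4 FPKM, and the beta bar is mostly Hbb-bs in DEK 1 and mostly Hbb-b1 in DEK 2.

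With copies summed, alpha and beta globin were close to even in the DEK libraries. The ratio of the alpha to the beta sum was 1.38 in DEK library 1 and 0.956 in DEK library 2. It was 2.40 in YFP library 1, at sums of 5.50 and 2.29 FPKM. With the beta members Hbb-bs and Hbb-b2 alone the ratio was 1.44 and 5.25 in DEK libraries 1 and 2, since Hbb-b1 is then left out. The alpha sum was 7.72-fold and the beta sum 11.1-fold higher in DEK library 2 than in DEK library 1, with no replicate check on that difference.

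Alas2 and Slc4a1 were far lower than the globins. Alas2 was at 0.350 and 0.984 FPKM in DEK and at 0.254 and 0.299 FPKM in YFP. Only DEK library 2 stood clear of the others. Slc4a1 was at 0.124 and 0.0737 FPKM in DEK and at 0 and 0.00737 FPKM in YFP, all of them low. Both stayed under 1 FPKM in every library and missed the low filter, which 4 of the 6 members passed. Their log2 differences, DEK minus YFP, were 0.36 and 0.13. In all 6 members both DEK values exceeded both YFP values, a pattern that 32.9% of genes above 0 in at least 1 library also showed, while 21.4% showed the reverse pattern. The members were chosen for this contrast, so nothing is read from that count. Their median log2 difference was 3.001, beside 0.05 over all tested genes. All 6 stayed higher in DEK under TMM scaling, quantile normalization and removal of Rn45s, which their choice had largely set in advance.

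The globins were among the genes that differed most between the DEK libraries themselves. Ranked by log2(FPKM + 1) in DEK library 2 minus DEK library 1 over the 12179 tested genes, Hbb-b1 came in place 1 (6.90), Hbb-b2 in place 2 (3.35), Hba-a1 in place 4 (3.22) and Hba-a2 in place 7 (2.35). Hbb-bs went the other way, at -1.12. The median size of this difference over tested genes was 0.20, and 95% of tested genes lay under 0.79. The genes in places 5 and 6, the neutrophil granule genes Camp and Ngp, had differences of 2.68 and 2.54. Camp and Ngp, chosen after their values were seen, were also at 29.4 and 36.7 FPKM in YFP library 2, the library in which Hba-a1, Hba-a2 and Hbb-b2 were listed at 0.

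Genes with a profile like that of Hba-a1 were sought by the Euclidean distance over the 4 libraries of log2(FPKM + 1) after subtraction of the YFP mean. Among tested genes outside the members the nearest included the lipid carrier gene Fabp4 (distance 2.45) and the endothelial phosphatase gene Ptprb (2.68), followed by Lrch4, Smoc2, Ly6c1, Aqp1, Idi1, Nr4a1 and H2-Aa (2.78 to 3.20). Fabp4 was at 53.9 and 49.0 FPKM in DEK libraries 1 and 2 and at 1.32 and 0.330 FPKM in YFP. It was thus nearly even within DEK, where Hba-a1 was not. Hbb-b2 lay at 3.04 and Hba-a2 at 3.07 from Hba-a1, each with 8 tested non-members nearer. Hbb-bs lay at 4.34, Alas2 at 7.04 and Slc4a1 at 7.48. With only 4 libraries this likeness is a description.

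The embryonic globins Hbb-bh1, Hbb-y and Hba-x were listed at 0 throughout. Of 16 other globin symbols sought, 12 were in the table and 3 passed the low filter, and 6 were listed at 0 in all 4 libraries, namely Hbb-bh1, Hbb-bh2, Hbb-y, Hba-x, Hbq1a and Hbq1b. By limma 0 of the 3 tested were called, with 1 at an unadjusted p under 0.05. Cytoglobin Cygb, expressed in fibroblast-like cells, was at 1.39 and 1.73 FPKM in DEK and at 0.746 and 0.313 FPKM in YFP (log2 difference 0.75, SE 0.24, limma adjusted p = 0.112). Myoglobin Mb, the oxygen store of muscle fibres, was at 0.579 and 0.940 FPKM in DEK and at 1.24 and 1.63 FPKM in YFP (log2 difference -0.47, SE 0.23, limma adjusted p = 0.236).

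The genes beside the alpha cluster in RefSeq order, taken by position, had log2 differences, DEK minus YFP, from -0.55 to 0.26 where tested. Nprl3, whose introns hold the alpha globin enhancers, was at 11.9 and 13.9 FPKM in DEK and at 10.5 and 10.6 FPKM in YFP (log2 difference 0.26, SE 0.17, limma adjusted p = 0.350). The DNA repair gene Mpg was at 27.7 and 26.4 FPKM in DEK and at 25.2 and 27.4 FPKM in YFP (log2 difference 0.04, SE 0.14, limma adjusted p = 0.879). Of the flanking genes tested, Rhbdf1, Mpg, Nprl3, Sh3pxd2b and Ubtd2, 0 were called, with limma adjusted p from 0.148 to 0.879 and 1, Rhbdf1, at an unadjusted p under 0.05 (log2 difference -0.54). The beta cluster lies among olfactory receptor genes, and the 6 nearest of these were listed at 0 in all 4 libraries.

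Genes used as erythroid precursor markers were low, under 1 FPKM in the DEK libraries for each one named here, and several were listed at 0. The erythroid master regulator Gata1 was listed at 0 in all 4 libraries, as were the carbonic anhydrase gene Car1, the blood group gene Kel and Tspo2. Klf1, the factor that drives adult beta globin, was at 0.101 and 0.0983 FPKM in DEK and at 0.0483 and 0 FPKM in YFP. Tal1, a factor of blood and vessel cells, was at 0.259 and 0.325 FPKM in DEK and listed at 0 in YFP. Nfe2, an erythroid and megakaryocyte factor, was at 0.794 and 0.824 FPKM in DEK and at 0.458 and 0.0240 FPKM in YFP. Both DEK libraries were thus above both YFP libraries for Klf1, Tal1 and Nfe2, the last chosen after its values were seen. The erythropoietin receptor gene Epor was at 0.292 and 0.111 FPKM in DEK and at 1.15 and 0 FPKM in YFP, with its highest value in YFP library 1. Kit, a receptor of early progenitors, was at 0.0961 and 0.257 FPKM in DEK and listed at 0 in YFP.

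Of 14 erythroid transcription and signalling genes in the table, 2 were tested, of which 1 rose and 1 fell. Over the 14, of which 2 were listed at 0 throughout, both DEK values lay above both YFP values in 7 and below them in 1, beside the 32.9% and 21.4% of all genes above 0. The adaptor gene Lmo2, also expressed in endothelial cells, was at 41.7 and 54.7 FPKM in DEK and at 14.9 and 17.1 FPKM in YFP (log2 difference 1.52, SE 0.18, limma adjusted p = 0.0124). The broadly expressed adaptor gene Ldb1 was at 34.7 and 30.7 FPKM in DEK and at 52.8 and 65.4 FPKM in YFP (log2 difference -0.83, SE 0.17, limma adjusted p = 0.0403). These members of the list are not restricted to erythroid cells. Limma called 0 of the 2 with any one library left out.

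Of 25 red cell membrane and cytosol genes, 10 were tested, and 1 rose and 1 fell by limma, with 6 higher and 2 lower of the 10 at an unadjusted p under 0.05, beside 16.9% and 12.2% of all tested genes. The gene that fell was Tmod1, an actin-capping gene of red cells and muscle fibres, at 0.746 and 0.774 FPKM in DEK and at 8.64 and 8.21 FPKM in YFP (log2 difference -2.42, SE 0.19, limma adjusted p = 0.00405). This was the largest difference in size among the 10 tested genes of the list, and it was lower in DEK, where the globins were higher. The membrane skeleton gene Epb4.1 had a log2 difference of 0.84 (SE 0.20, limma adjusted p = 0.0569). The median over the tested genes of the list was 0.57, and 0 to 1 of them were called with one library left out.

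The remaining steps of heme synthesis were expressed in every library, as in most cells. All 15 genes of the list were tested, and 1 rose and 0 fell by limma, with 2 at an unadjusted p under 0.05 in each direction, shares near the 16.9% higher and 12.2% lower of all tested genes. Abcb10, a mitochondrial transporter needed for heme synthesis in erythroid cells, was at 43.1 and 45.2 FPKM in DEK and at 21.5 and 15.0 FPKM in YFP (log2 difference 1.25, SE 0.20, limma adjusted p = 0.0246). Alas1, the form of the first enzyme in other tissues, was at 10.8 and 10.2 FPKM in DEK and at 8.53 and 6.79 FPKM in YFP (log2 difference 0.41, SE 0.19, limma adjusted p = 0.204), above Alas2 in every library per length. Cpox, a late enzyme of the pathway, was at 1.62 and 1.87 FPKM in DEK and at 4.09 and 3.83 FPKM in YFP (log2 difference -0.85, SE 0.20, limma adjusted p = 0.0558). The median over the list was 0.28, its sum was 280 and 287 FPKM in DEK and 240 and 240 FPKM in YFP, and limma called 0 of the 15 with any one library left out.

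**Figure D3:**
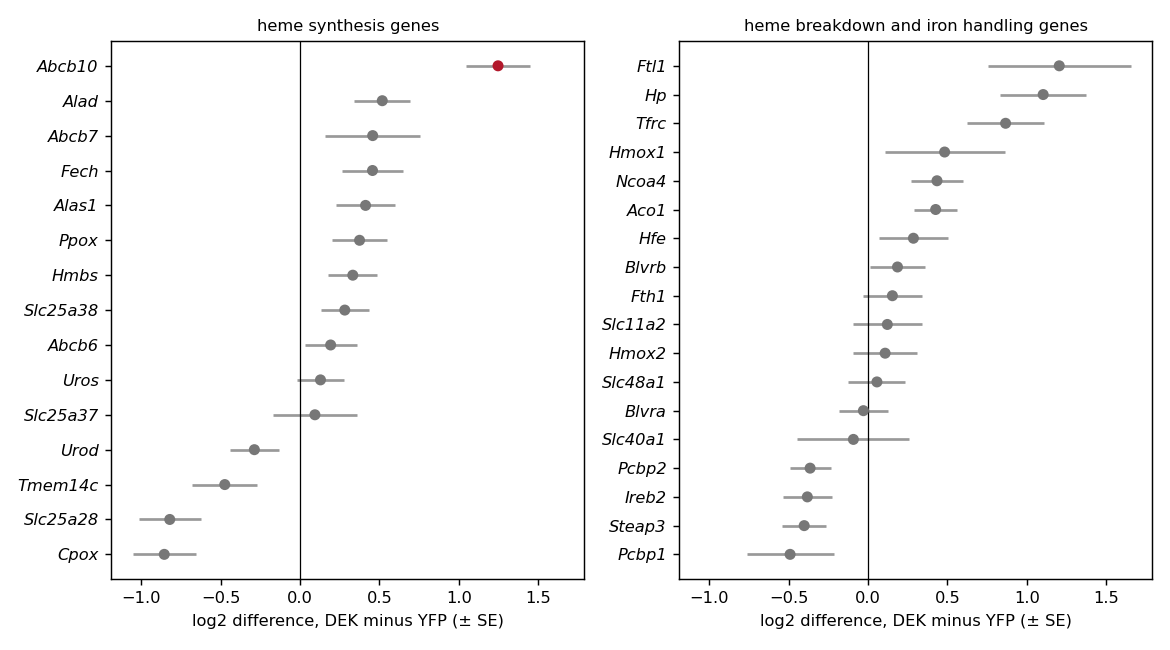
Log2 difference, DEK minus YFP, with its standard error for the tested genes of heme synthesis (left panel) and of heme breakdown and iron handling (right panel), ordered by size. Abcb10, in red, passed limma at an adjusted p under 0.05, and the genes in grey did not.

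Of 23 heme breakdown and iron handling genes in the table, a total of 18 were tested, and limma called 0 of them, with 5 higher and 2 lower at an unadjusted p under 0.05, beside 16.9% and 12.2% of all tested genes. The transferrin receptor gene Tfrc, which takes up iron in erythroid and dividing cells, was at 14.9 and 11.3 FPKM in DEK and at 8.12 and 5.42 FPKM in YFP (log2 difference 0.87, SE 0.24, limma adjusted p = 0.0835). The haptoglobin gene Hp, whose product binds free hemoglobin, was at 1.03 and 1.95 FPKM in DEK and at 0.0366 and 0.251 FPKM in YFP (log2 difference 1.10, SE 0.27, limma adjusted p = 0.0647). The cytosolic aconitase gene Aco1, an iron sensor, had a log2 difference of 0.43 (SE 0.13, limma adjusted p = 0.105). The 2 in the other direction were the metal reductase gene Steap3, at 44.3 and 49.2 FPKM in DEK and 63.2 and 60.8 FPKM in YFP (log2 difference -0.40, SE 0.14, limma adjusted p = 0.125), and the iron chaperone gene Pcbp2, chosen after its values were seen (log2 difference -0.36, SE 0.13, limma adjusted p = 0.134). Without DEK replicate 2 limma called 1 gene of this list.

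Markers of other blood and vessel cells moved with the globins to differing degrees, and their part in the globin values was not tested. In bulk RNA more cells of a type and more RNA per cell cannot be told apart. The 13 neutrophil markers summed to 118 and 348 FPKM in DEK libraries 1 and 2 and to 5.74 and 132 FPKM in YFP libraries 1 and 2. Limma called 2 of the 8 tested higher and 0 lower, beside 4.57% and 3.21% of all tested genes. These were the receptors Csf3r, at 3.02 and 4.86 FPKM in DEK, and Cxcr2, at 2.90 and 3.44 FPKM in DEK. Both were listed at 0 in YFP (limma adjusted p = 0.0105 and 0.00806) and passed the low filter only through DEK. A call lower in DEK was not possible for this pair, so its direction is not a result and the count is not like that background. The abundant granule genes S100a8 and S100a9 did not pass. S100a8 was at 39.7 and 90.7 FPKM in DEK and at 1.81 and 22.8 FPKM in YFP (log2 difference 2.90, SE 0.96, limma adjusted p = 0.117). The order of neutrophil and globin sums differed in YFP, where library 2 had the higher neutrophil sum and the lower globin sum. With any one library left out 0 of these markers were called.

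Endothelial markers were higher in DEK, with 14 of 17 tested called by limma, 0 called lower and a median log2 difference of 2.76 over the 17, beside the background of 4.57%. The called genes other than Fabp4 and Aqp1 were under 1 FPKM in both YFP libraries and passed the low filter only through DEK. A call lower in DEK was not possible for them, so their direction is not a result and the count is not like that background. Pecam1 was at 15.3 and 12.1 FPKM in DEK and at 0.745 and 0.579 FPKM in YFP (log2 difference 3.14, SE 0.21, limma adjusted p = 0.00353), and Cdh5 was at 2.69 and 1.78 FPKM in DEK and at 0.0866 and 0 FPKM in YFP (limma adjusted p = 0.0207). The water channel gene Aqp1, shared by endothelium and red cells, was at 54.8 and 37.0 FPKM in DEK and at 1.25 and 1.37 FPKM in YFP (log2 difference 4.32, SE 0.23, limma adjusted p = 0.0031). The list of 18 summed to 371 and 296 FPKM in DEK and to 81.9 and 77.4 FPKM in YFP, and without its highest gene, Tek, likewise chosen after its values were seen, to 293 and 229 FPKM in DEK and 25.9 and 20.7 FPKM in YFP. It was higher in DEK library 1 than in DEK library 2, opposite to alpha globin. Limma called 0 of these markers without DEK replicate 1 and 7 to 11 without each of the others.

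Among 15 macrophage and monocyte markers 9 were tested, and 5 rose and 0 fell by limma, beside 4.57% and 3.21% of all tested genes. Those that rose were Csf1r, C1qa, C1qb, C1qc and Ccr2. All 5 were under 1 FPKM in both YFP libraries and passed the low filter only through DEK. A call lower in DEK was not possible for them, so their direction is not a result and the count is not like that background. The receptor gene Csf1r was at 5.997 and 5.38 FPKM in DEK and at 0.0977 and 0 FPKM in YFP (log2 difference 2.67, SE 0.21, limma adjusted p = 0.00405). The list summed to 102 and 127 FPKM in DEK and to 3.78 and 20.6 FPKM in YFP. Most of the DEK sum came from the lysozyme gene Lyz2, chosen after its values were seen, at 73.4 and 100.1 FPKM in DEK and 0.200 and 15.2 FPKM in YFP, which did not pass (limma adjusted p = 0.0691). Without it the list summed to 28.6 and 26.9 FPKM in DEK and to 3.58 and 5.36 FPKM in YFP. With one library left out 0 to 2 of its genes were called. The pan-leukocyte gene Ptprc was at 1.302 and 1.53 FPKM in DEK and at 0.0105 and 0.474 FPKM in YFP (limma adjusted p = 0.0765).

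Platelet and lymphocyte markers were low. Of 13 platelet and megakaryocyte markers 1 was tested and limma called 0, with 0 at an unadjusted p under 0.05. They summed to 3.54 and 4.28 FPKM in DEK and to 3.01 and 2.71 FPKM in YFP, with Gp9, Gp6 and Tubb1 among those at 0 in all libraries. The platelet chemokine gene Pf4 was at 0.873 and 1.01 FPKM in DEK and at 0.234 and 0.305 FPKM in YFP, and Ppbp was at 0 and 0.0387 FPKM in DEK and listed at 0 in YFP. Of 13 lymphocyte markers 1 was tested and limma called 0, with 1 at an unadjusted p under 0.05. They summed to 10.6 and 9.49 FPKM in DEK and to 2.54 and 3.88 FPKM in YFP. Both DEK values lay above both YFP values in 10 of these 13 and below them in 0, beside 32.9% and 21.4% of all genes above 0. For the 13 platelet markers the counts were 3 and 0. The T cell gene Cd3e was at 0.934 and 1.02 FPKM and the B cell gene Ms4a1 at 0.450 and 0.925 FPKM in DEK, and both were listed at 0 in YFP.

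**Figure D4:**
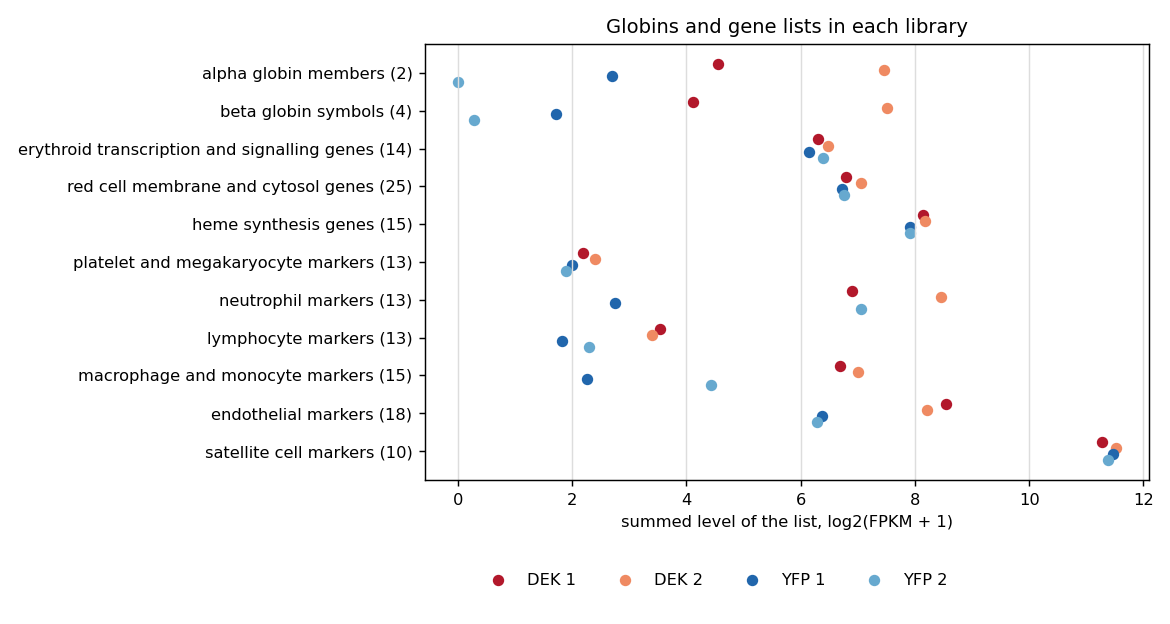
Summed level of the alpha and beta globin symbols and of 9 gene lists, as log2(FPKM + 1), in each library, with the number of genes in brackets. Of the sums drawn, alpha and beta globin lie farthest apart between DEK 1 and DEK 2, at 22.5 and 174 FPKM for alpha, while the 4 values for heme synthesis, red cell membrane genes and satellite cell markers lie close together.

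Satellite cell markers stayed high in all libraries, at summed levels of 2469 and 2936 FPKM in DEK and 2841 and 2656 FPKM in YFP. Much of each sum came from Chodl, chosen after its values were seen. Without it the sums were 1316 and 1833 FPKM in DEK and 1551 and 1430 FPKM in YFP. At an unadjusted p under 0.05 by limma, 3 markers were higher and 1 lower in DEK, beside 16.9% and 12.2% of all tested genes. Of the 10 tested 0 rose and 1 fell, the transcription factor gene Msc, at 64.1 and 88.2 FPKM in DEK and 169 and 134 FPKM in YFP (log2 difference -0.99, SE 0.21, limma adjusted p = 0.0438), which limma no longer called with any one library left out. Against this the 6 globin and erythroid members together took 0.0071% and 0.0383% of the column total in DEK and 0.00116% and 9.73e-05% in YFP.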

How the data were processed

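Polyadenylated RNA of PFA-fixed, sorted muscle stem cells was profiled in 4 libraries. The submitters' processing notes name build mm9 and list R 3.4.1, the aligner STAR 2.5.3a and the assembler StringTie 1.3.3. The deposited values are read as FPKM made by the authors. This is inferred, since they are not whole, and TPM is possible. Settings and annotation are not given in the sources used here. Ratios of low values showed no common step (at most 6 of 761 genes shared a ratio), so whole reads were not recovered and depth is unknown. No intervals or detection limits are given. All 4 value columns were used.

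Values were analysed as log2(FPKM + 1) with limma 3.58.1 in R 4.3.3, with an eBayes variance trend, two-sided, on genes reaching 1 FPKM in 2 or more libraries, with Benjamini-Hochberg adjustment over 12179 genes and calls under 0.05. The code was checked on simulated data. Fold changes on this scale understate low genes. Whether replicates came from separate animals is not given in the labels, and p-values measure the spread between libraries, which may be technical. With 2 against 2 libraries no exact permutation test can reach 0.05, so none was run. Members and the 11 gene lists were chosen with earlier results of these data known. Named genes were the members, up to 4 genes per list with the smallest p, genes called in a list, set markers and the 10 profiles nearest to Hba-a1; not all are described, some are not reported here, and genes outside this rule are marked. Python 3.11.15 and matplotlib 3.10.9 served for descriptions and figures. Promoters are RefSeq sequences on GRCm38.p6 and transcripts are GENCODE M21.

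Alternatives were the replicate number as a block, each library left out, a low filter of 5 FPKM or none, 0.1 or 5 added in place of 1, TMM factors (trims of 30 and 5%), quantile normalization, removal of Rn45s, and eBayes without trend or robust. Summing the globin copies was added after seeing the data.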

Additional observations from a re-analysis of the deposited data

How the results depend on the processing

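The 6 members were chosen for higher values in DEK, so the direction of their differences was largely set in advance and checks nothing. All 6 stayed higher wherever single members were recomputed, which excludes the replicate block, the low filters and the eBayes settings. The median log2 difference of the members, 3.001, became 4.895 with an added value of 0.1 and 1.49 with an added value of 5. It was 2.51 with the copies summed, a setting chosen after seeing the data that holds 4 entries in place of 6. With one library left out it ran from 1.82, without DEK replicate 2, to 3.54, without DEK replicate 1. The 948 calls across the table became 618 with the replicate block and 293 with no low filter, and 0 to 184 with one library left out, with 0 without DEK replicate 1, where 2215 genes had an unadjusted p under 0.05. Higher and lower calls were 557 and 391 as reported, 569 and 514 after TMM scaling, 479 and 507 after quantile normalization, and 409 and 557 once Rn45s was taken out. That last step shifted the all-gene median to -0.07, against 0.05 as reported.

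In the lists, calls for erythroid transcription genes (2) became 1 with the replicate block, 0 with no low filter, 1 without trend and 0 with any library left out. For red cell genes (2) they became 1 with the replicate block, an added 0.1, no low filter or 5 FPKM, and 0 to 1 with one library left out. For heme synthesis genes (1) they became 0 with no low filter, 3 after TMM scaling, 2 after quantile normalization, 3 with Rn45s removed, 2 without trend and 0 with any library left out. For heme breakdown and iron genes (0) they ran from 0 to 1 with one library left out. For neutrophil markers (2) they became 4 with the replicate block, 0 at 5 FPKM and 0 with any library left out. For lymphocyte markers (0) they became 1 with no low filter. For macrophage markers (5) they became 1 at 5 FPKM and 0 to 2 with one library left out. For endothelial markers (14) they became 9 at 5 FPKM and 0 to 11 with one library left out. For satellite cell markers (1) they became 0 with the replicate block, an added 0.1, no low filter, no trend or any library left out. Calls in the other globin and platelet lists were 0 throughout. The cause of these changes was not tested, apart from the fewer genes at 5 FPKM.

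The libraries share replicate numbers, but the labels do not say what a number stands for, and deviations of DEK and YFP replicate 1 from their group means correlated at r = 0.0635 across 12179 genes. The replicate block therefore does not show a pairing. Depth is unknown, and values under 1 FPKM, such as those of Alas2 and Slc4a1, cannot be given a counting error.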
